A study of Mus musculus with 6 samples.

Results

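The DNA glycosylase TDG acts in the last steps of active DNA demethylation, and other glycosylases and GADD45 proteins have been proposed to take part. In mouse embryonic stem (ES) cells grown with or without vitamin C, 10 genes of these families were examined. They were chosen by name, as 7 glycosylase genes (Tdg, Mbd4, Smug1, Ung, Neil1, Neil2 and Neil3) and the 3 GADD45 genes. Of the 10, 9 had a probe set annotated to that gene alone, among 19938 genes tested in all. Tdg had none, and its shared probe sets are described separately. Each of the 9 had a single such probe set, so no choice between probe sets was needed for them.

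The vitamin C group held 3 arrays, from cells given L-ascorbic acid 2-phosphate at 200 μg/ml for 72 hours, and the untreated group held 3 arrays from cells cultured alongside without it. All were Oct4-GiP ES cells grown on 0.1% gelatin in N2B27 medium with LIF (1000 U/ml), the MEK inhibitor PD0325901 (1 μM) and the GSK3β inhibitor CHIR99021 (3 μM), a mixture used to hold ES cells in a naive state. A single line was used, and GEO's design text calls the replicates biological. The values are log2 signals of Affymetrix arrays, which compare one probe set between arrays and do not compare the levels of different genes.

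In active demethylation, TET enzymes oxidise methylcytosine, and base excision repair then replaces the oxidised base with an unmodified cytosine. A glycosylase opens this repair by cutting the base from its sugar, after which an endonuclease, a polymerase and a ligase restore the strand. GADD45 proteins are small stress-induced proteins without known enzyme activity that bind kinases, cell cycle regulators and repair factors, and they have been proposed to bring repair to methylated sites. In ES cells TDG is the glycosylase best known for removing formylcytosine and carboxylcytosine.

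RefSeq promoter windows (build GRCm38.p6, 250 bases before to 50 bases after the annotated start) were found for 9 of the 10 genes, with no entry for Neil2. The windows of the 3 GADD45 genes, which did not all move the same way, and of Ung, the glycosylase gene that rose, are shown 5′ to 3′ on the gene's strand, with each CG dinucleotide, the site of DNA methylation, in capitals.
Gadd45a (chr6:67037358-67037657, minus strand): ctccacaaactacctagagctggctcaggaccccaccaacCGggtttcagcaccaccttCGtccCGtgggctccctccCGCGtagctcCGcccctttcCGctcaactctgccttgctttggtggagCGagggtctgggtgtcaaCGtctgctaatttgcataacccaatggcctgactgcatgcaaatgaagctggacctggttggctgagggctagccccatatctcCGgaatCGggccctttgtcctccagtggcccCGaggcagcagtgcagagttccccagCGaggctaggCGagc
Gadd45b (chr10:80929841-80930140, plus strand): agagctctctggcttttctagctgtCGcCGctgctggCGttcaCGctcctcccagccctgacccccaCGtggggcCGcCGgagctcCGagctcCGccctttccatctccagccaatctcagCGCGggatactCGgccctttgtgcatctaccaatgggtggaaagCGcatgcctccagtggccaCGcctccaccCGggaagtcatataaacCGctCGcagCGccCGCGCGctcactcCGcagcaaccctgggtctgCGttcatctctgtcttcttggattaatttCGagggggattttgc
Gadd45g (chr13:51846425-51846724, plus strand): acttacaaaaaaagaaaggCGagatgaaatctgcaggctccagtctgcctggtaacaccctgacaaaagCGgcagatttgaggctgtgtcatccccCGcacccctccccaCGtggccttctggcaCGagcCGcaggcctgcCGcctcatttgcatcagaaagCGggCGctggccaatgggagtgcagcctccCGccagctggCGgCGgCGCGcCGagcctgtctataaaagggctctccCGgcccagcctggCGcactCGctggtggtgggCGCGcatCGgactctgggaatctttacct
Ung (chr5:114130185-114130484, plus strand): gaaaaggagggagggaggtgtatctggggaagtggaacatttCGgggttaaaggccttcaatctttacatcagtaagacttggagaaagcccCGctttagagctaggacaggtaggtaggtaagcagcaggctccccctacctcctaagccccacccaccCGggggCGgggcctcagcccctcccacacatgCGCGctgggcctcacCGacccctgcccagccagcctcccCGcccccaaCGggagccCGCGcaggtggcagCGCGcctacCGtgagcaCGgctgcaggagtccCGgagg

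The Gadd45b window held 24 CG dinucleotides and the Gadd45g window 21, while those of Ung and Gadd45a held 16 and 14. The median over all 32851 windows was 7 CG, with quartiles at 3 and 20, so all 4 lay above the median. The other 5 windows held 26 CG (Tdg), 25 (Mbd4), 17 (Neil1), 15 (Smug1) and 14 (Neil3). A search of both strands for ACGTG found it in 4 of the 9 windows, against 19.6% of all windows. In Gadd45b, Gadd45g and Tdg this included the palindrome CACGTG, which reads ACGTG on both strands, and 7.15% of all windows held that palindrome. It began 185 bases before the start of Gadd45b and 142 bases before that of Gadd45g. The other window with ACGTG was that of Mbd4, where it lay on the opposite strand after the start. GGGCGG stood in 6 of 9 windows (35.7% of all), CCAAT in 6 (37.4%), TATAAA in 3 (13.6%) and TGACG in 4 (20.8%). All of these motifs except CCAAT and TATAAA contain a CG. CACGTG was added to the search after the matches to ACGTG were seen. These matches describe letters in the windows and were not tested against the expression values.

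With vitamin C, Gadd45a and Ung rose while Gadd45b and Neil2 fell, so both families held a member that rose and a member that fell. The changes were small, between 1.24-fold and 1.64-fold. Of the 9 genes, 2 passed the test as rises and 2 as falls, and 5 missed it (limma across all genes, adjusted p under 0.05). Among all 19938 genes 13.2% passed, made up of 5.75% that rose and 7.40% that fell. With dim genes left out of the fit, the same 4 of the 9 passed, against 18.6% of 16629 genes. Vitamin C and untreated arrays were fully separated for 5 of the 9 genes, against 35.0% of all genes. The median size of the log2 difference was 0.31 over the 9 genes and 0.13 over all genes tested, and the median signed difference was -0.11 over the 9 and 0.01 over all. The 4 called genes were reduced to 1 without vitamin C replicate 1 or without vitamin C replicate 3, and to 2 without untreated replicate 1 or 3, while 7.44% to 8.16% of all genes passed in those 4 smaller fits.

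**Figure D1:**
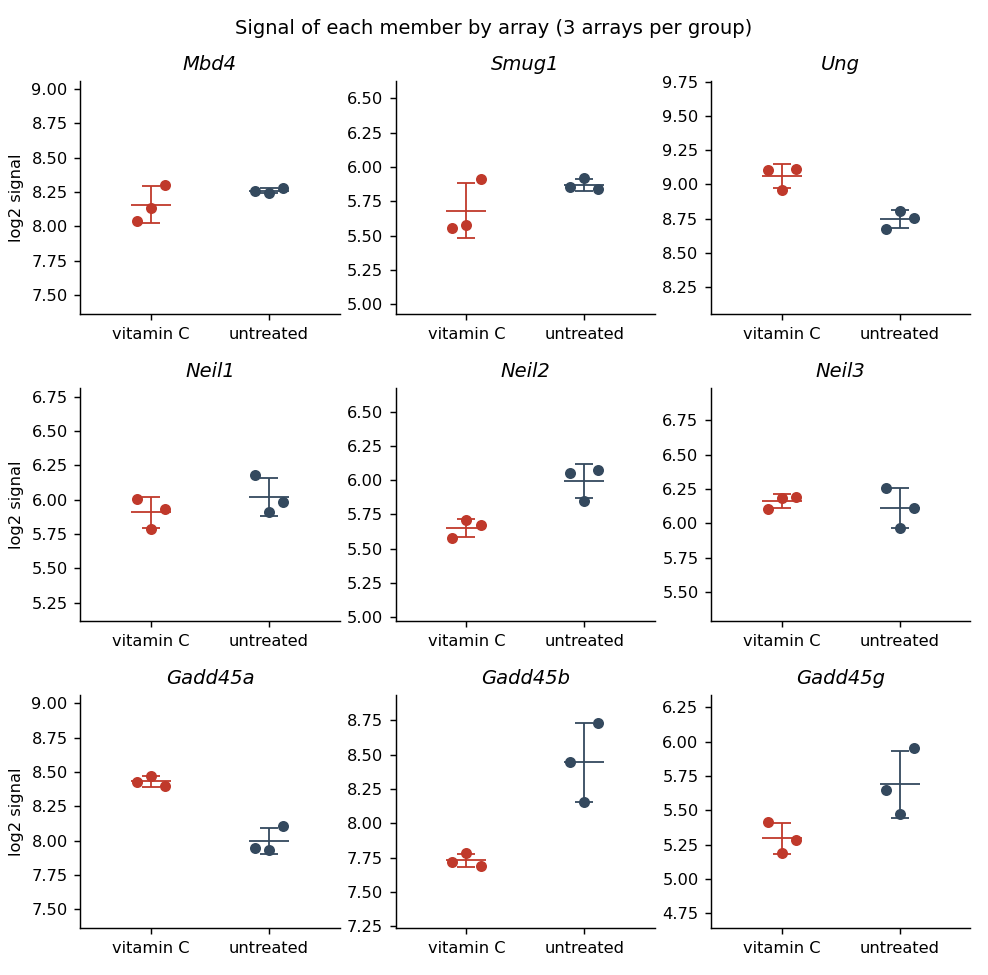
Log2 signal of the 9 measured genes on each array (points), with vitamin C left of untreated, and the mean and SD of the 3 arrays (bars); every panel spans the same range of log2 units around its own centre. The groups stand apart for Ung, Neil2 and the 3 GADD45 genes, and overlap for Mbd4, Smug1, Neil1 and Neil3.

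Gadd45a, the founding member of its family and a gene induced by DNA damage, had log2 signals of 8.42, 8.47 and 8.40 on the vitamin C arrays, against 7.95, 7.94 and 8.10 on the untreated arrays. All vitamin C values lay above all untreated values. The log2 difference was 0.44 ± 0.07 (SE), a 1.35-fold rise (limma, adjusted p = 0.00857), and 6.46% of all genes differed by more. Its call held under each of 16 alternative settings that kept the threshold of 0.05, with adjusted p-values from 0.000150 to 0.0346, and the difference stayed between 0.40 and 0.49.

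Gadd45b, an early response gene of growth factor and stress signalling, had log2 signals of 7.72, 7.78 and 7.69 on the vitamin C arrays, against 8.45, 8.16 and 8.73 on the untreated arrays. The vitamin C arrays were close together and below every untreated array, while the untreated arrays were spread, at an SD of 0.29 against 0.048 in the vitamin C group. The log2 difference was -0.72 ± 0.14 (SE), a 1.64-fold fall (limma, adjusted p = 0.0153), and only 1.80% of all genes differed by more. The call was lost without vitamin C replicate 1 (adjusted p = 0.0557) or 3 (0.0530), with no moderation of the variances (0.0918) and with every row of the value table tested (0.0518). Over all 16 alternatives the adjusted p lay between 0.000278 and 0.0918 and the difference between -0.86 and -0.57.

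Gadd45g, a family member known from neural and mesodermal differentiation, had log2 signals of 5.42, 5.19 and 5.28 on the vitamin C arrays, against 5.65, 5.47 and 5.95 on the untreated arrays. The vitamin C arrays were again below every untreated array, by a narrow margin. The log2 difference of -0.39 ± 0.13 (SE) did not pass (limma, adjusted p = 0.0840), with a 95% interval from -0.69 to -0.10. It passed at 0.0362 with a trended and robust spread, where 20.8% of all genes passed, and its adjusted p lay between 0.0362 and 0.217 over the 16 alternatives.

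Gadd45a and Gadd45b differed in opposite directions. The log2 ratio of Gadd45a to Gadd45b was 0.70, 0.69 and 0.71 on the vitamin C arrays, against -0.50, -0.22 and -0.63 on the untreated arrays, a shift of 1.15. This comparison of 2 genes was made after their values were known. Since the groups of each gene were already separate, in opposite directions, the ratio had to separate as well. A two-sided exact permutation test over the 20 assignments of the arrays could therefore give only p = 0.10. That is the smallest p that 3 against 3 arrays allow, and it adds nothing to the values of the 2 genes. The level of the ratio has no meaning of its own, since the 2 probe sets differ, and only its shift between groups can be read.

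Ung, which encodes the main uracil-DNA glycosylase, had log2 signals of 9.11, 8.96 and 9.11 on the vitamin C arrays, against 8.68, 8.81 and 8.76 on the untreated arrays. The groups did not overlap. The log2 difference was 0.31 ± 0.07 (SE), a 1.24-fold rise (limma, adjusted p = 0.0313). With 1 array left out the call held only without vitamin C replicate 2, and the adjusted p without any of the other 5 arrays lay between 0.0578 and 0.0957. It was also lost with the replicate number as a block (0.0806), with no moderation (0.0728) and with every row tested (0.0683), within a range of 0.00113 to 0.0957 over all alternatives. The difference itself stayed between 0.27 and 0.36.

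Neil2, which encodes a glycosylase for oxidised pyrimidines, had log2 signals of 5.58, 5.71 and 5.67 on the vitamin C arrays, against 6.05, 5.85 and 6.07 on the untreated arrays. All vitamin C values lay below all untreated values. The log2 difference was -0.34 ± 0.08 (SE), a 1.26-fold fall (limma, adjusted p = 0.0349). The call held without untreated replicate 2 (0.0269) and was lost without each of the other 5 arrays (0.0658 to 0.107), with the replicate block (0.0792), with no moderation (0.0941) and with every row tested (0.0793). Its adjusted p ranged from 0.0226 to 0.107 and its difference from -0.41 to -0.30 over the 16 alternatives.

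The other 4 measured glycosylase genes overlapped between groups. Mbd4, whose protein joins a methyl-CpG-binding domain to a thymine glycosylase, had log2 signals of 8.04, 8.13 and 8.30 on the vitamin C arrays, against 8.26, 8.24 and 8.28 on the untreated arrays. Its difference was -0.10 ± 0.08 (SE, limma adjusted p = 0.443), with a 95% interval from -0.29 to 0.08. The vitamin C arrays were more spread than the untreated ones (SD 0.14 against 0.017). Smug1, a uracil glycosylase that also removes hydroxymethyluracil, had signals of 5.56, 5.58 and 5.91, against 5.85, 5.92 and 5.84 untreated. Vitamin C replicate 3 lay among the untreated arrays and the other vitamin C arrays below them. The difference was -0.19 ± 0.10 (SE, adjusted p = 0.275), with an interval from -0.43 to 0.05, and without vitamin C replicate 3 it was -0.30 (adjusted p = 0.0503).

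Neil1, like NEIL2 a glycosylase for oxidised pyrimidines, had log2 signals of 6.01, 5.78 and 5.93 on the vitamin C arrays, against 6.18, 5.91 and 5.98 on the untreated arrays. The ranges overlapped, and the difference was -0.11 ± 0.09 (SE, limma adjusted p = 0.468; 95% interval -0.33 to 0.10). Neil3, the family member that acts on single-stranded DNA and on crosslinks in dividing cells, had signals of 6.11, 6.19 and 6.19, against 6.26, 5.97 and 6.11 untreated. Its vitamin C values lay inside the untreated range. The difference was 0.05 ± 0.09 (SE, adjusted p = 0.747; 95% interval -0.15 to 0.25), and it changed sign to -0.022 without untreated replicate 2. As a ratio of vitamin C to untreated, the lowest bound of these 4 intervals was 0.744, for Smug1, and the highest was 1.19, for Neil3.

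**Figure D2:**
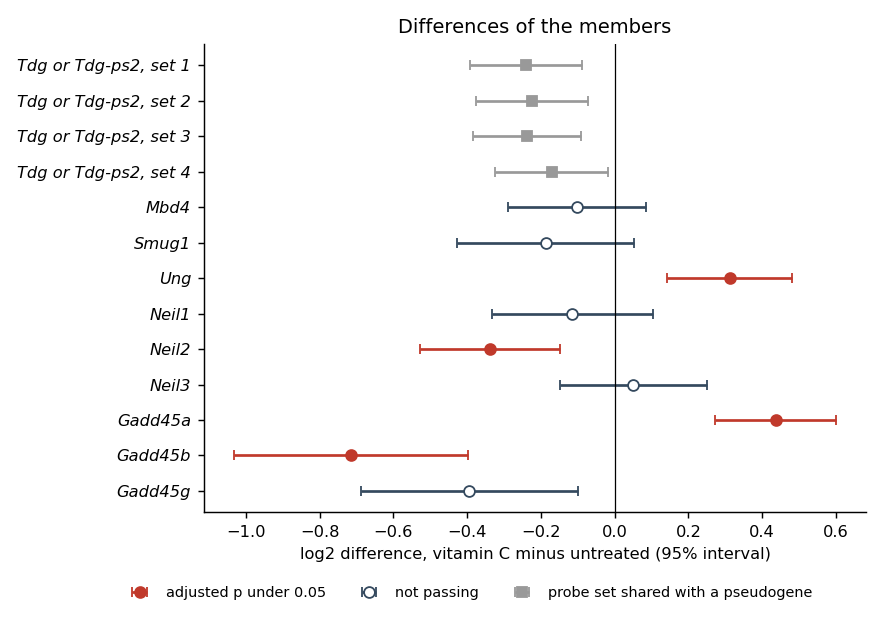
Log2 difference of each gene, vitamin C minus untreated, with its 95% interval from limma (filled circles pass at an adjusted p under 0.05, open circles do not); squares are the 4 probe sets annotated to both Tdg and Tdg-ps2, fitted with all rows of the value table. Gadd45a and Ung lie above 0 and Gadd45b and Neil2 below it, and the 4 shared probe sets lie between -0.24 and -0.17.

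Tdg could not be measured by itself. The 4 probe sets that carry its symbol are also annotated to the pseudogene Tdg-ps2, and the signals of gene and pseudogene cannot be told apart. The first of these probe sets had log2 signals of 8.51, 8.49 and 8.63 on the vitamin C arrays, against 8.76, 8.79 and 8.81 on the untreated arrays, and on all 4 the vitamin C arrays lay below every untreated array. Their differences were -0.24, -0.22, -0.24 and -0.17, each with an SE of 0.059 to 0.062. None passed when all 35557 rows were tested (limma, adjusted p = 0.0824 to 0.187), and the 95% intervals all lay below 0, between -0.39 and -0.02. That fit is not the one that gave the calls of the other genes. In it Gadd45b (adjusted p = 0.0518), Ung (0.0683) and Neil2 (0.0793) did not pass either, while Gadd45a did (0.0254). The 4 carry the same pair of gene symbols and were not counted as separate evidence.

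Genes of the surrounding pathways were followed in 7 lists compiled from general knowledge, which held 77 measured genes. Of these, 9 rose, 9 fell and 59 missed the threshold, against 5.75% of all genes that rose and 7.40% that fell. With the arrays centred on their medians 5 rose and 10 fell, and Tet1 (adjusted p = 0.0758), Dut (0.0878), Fen1 (0.0516) and Phlda3 (0.0619) were no longer called. Of the 18 called genes, 7 kept their call under all 16 alternatives at the threshold of 0.05, namely Mutyh, Apobec2, Map2k6, Atf4, Sesn2, Ccng1 and Mcm6. At an adjusted p under 0.01, 6 of the 18 were called, and Ccng1 and Mcm6 were not among them. The calls of Lig1, Fen1, Poll, Tet1, Dut, Ercc4, Phlda3 and Mcm4 were each lost without 1 array or another, those of Tet1, Dut, Poll and Mcm4 without any 1 of the 6. The call of Brca1 was lost without untreated replicate 2 (adjusted p = 0.0528) or vitamin C replicate 1 (0.0517). The remaining calls, of Apobec3 and Atf3, held with each array left out.

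Among the other glycosylase genes, 1 of 4 fell and none rose, with a median difference of -0.20. Mutyh, which removes adenine paired with oxidised guanine, averaged 7.06 ± 0.048 with vitamin C and 7.48 ± 0.088 untreated (SD, n = 3 each), a log2 difference of -0.42 (limma, adjusted p = 0.00923). Of the enzymes that follow the glycosylase, 1 of 15 rose, 2 fell and 12 did not pass (median -0.03). Fen1, the flap endonuclease of long-patch repair and replication, rose by 0.33 ± 0.08 (SE, adjusted p = 0.0314). The ligase gene Lig1 differed by -0.27 and the polymerase gene Poll by -0.26, with adjusted p-values of 0.0279 and 0.0484. Apex1, the endonuclease that cuts the strand after the base is removed, differed by 0.04 ± 0.06 (SE, adjusted p = 0.680), with a 95% interval from -0.10 to 0.18.

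Ahead of the glycosylase stand the TET oxidases and the cytidine deaminases, with 7 genes measured: 1 rose, 2 fell and 4 missed the threshold (median 0.09). Tet1, the main TET gene of ES cells, averaged 10.12 ± 0.043 with vitamin C and 9.87 ± 0.010 untreated (SD, n = 3 each), 1.19-fold higher with vitamin C (limma, adjusted p = 0.0321, and 0.0601 to 0.0932 with 1 array left out). Tet2 differed by 0.18 (adjusted p = 0.143) and Tet3 by 0.09 (adjusted p = 0.431). The antiviral deaminase gene Apobec3 was lower by 0.46 on the log2 scale (8.82 ± 0.015 against 9.28 ± 0.040, SD, n = 3 each; adjusted p = 0.00345). That value rests on the brighter of its probe sets, since their mean did not pass (adjusted p = 0.186). Apobec2, a relative of the deaminases known from muscle, averaged 7.09 ± 0.049 against 7.54 ± 0.047 untreated (SD, n = 3 each; adjusted p = 0.00516). Uracil enters DNA through the nucleotide pool, and of 9 genes that set this supply 1 rose and none fell (median 0.03). That gene was Dut, whose product removes dUTP, by 0.24 ± 0.06 (SE, adjusted p = 0.0398).

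Of 12 measured partners of GADD45 proteins 1 rose, 1 fell and 10 did not pass (median -0.04). Map2k6, a kinase that activates p38 below the GADD45-binding kinase MAP3K4, averaged 7.03 ± 0.057 with vitamin C and 7.78 ± 0.077 untreated (SD, n = 3 each), a 1.68-fold fall (limma, adjusted p = 0.000955). Ercc4, which encodes an endonuclease subunit of excision repair, rose by 0.37 ± 0.08 (SE, adjusted p = 0.0294). Cdkn1a, the cell cycle inhibitor gene that often accompanies Gadd45a, had no probe set of its own and is not analysed here.

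A list of 16 measured transcription factors and stress genes also held p53-responsive genes that are not regulators of GADD45 genes. Trp53, the gene of p53 itself, and Nfkb1 were listed too, but no probe set carried their symbols. Of the 16, 5 rose, 1 fell and 10 missed the threshold, where 5.75% of all genes rose and 7.40% fell. The median difference of the 16 was 0.22, against 0.01 for all genes. Atf4, the transcription factor of the amino acid and endoplasmic reticulum stress response, averaged 9.94 ± 0.071 with vitamin C and 9.50 ± 0.075 untreated (SD, n = 3 each), 1.36-fold higher (limma, adjusted p = 0.00825). Atf3, a stress-induced factor of the same family, rose 1.50-fold (adjusted p = 0.0120, and 0.0718 with no moderation). The p53-responsive genes Sesn2 and Ccng1 rose by 0.47 and 0.35 on the log2 scale (adjusted p = 0.00631 and 0.0110). Phlda3, also p53-responsive, rose by 0.29 and Brca1, a repair gene reported to regulate Gadd45a, fell by 0.32. Other p53-responsive genes of the list did not pass, namely Mdm2 (0.22, limma adjusted p = 0.0730), Btg2 (0.17, 0.142), Zmat3 (0.07, 0.585) and Sesn1 (-0.05, 0.746). Phlda3, Brca1 and these genes were named after their values were seen. The 16 genes were listed with earlier results of these arrays known, so their direction is not independent evidence. In DNA replication none of 15 genes rose and 2 fell, Mcm6 by 0.38 and Mcm4 by 0.26 (adjusted p = 0.0123 and 0.0293), with a median of -0.07.

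**Figure D3:**
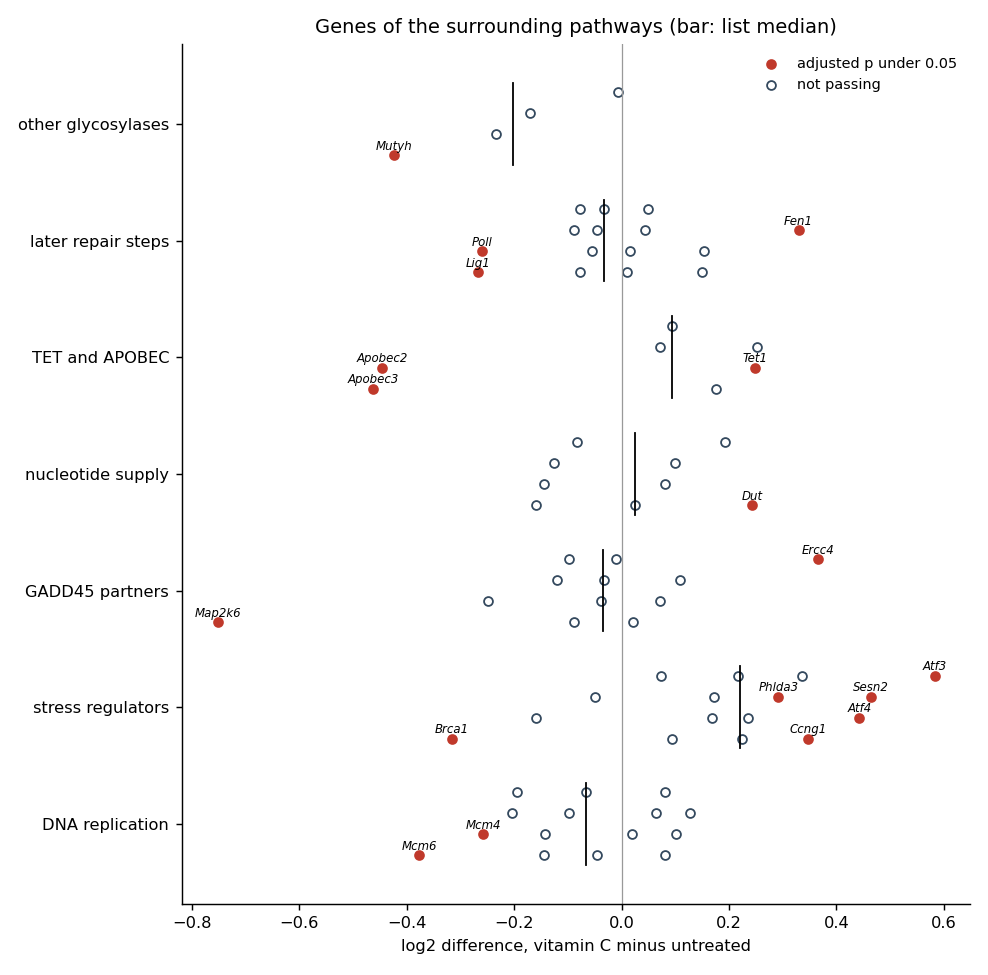
Log2 difference, vitamin C minus untreated, of each measured gene in the 7 lists (filled points pass at an adjusted p under 0.05 and are named, open points do not); heights within a list only separate the points, and the black bar is the list median. The stress regulator list has its median at 0.22, and the other medians lie between -0.20 and 0.09.

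All 6 arrays had medians between 5.52 and 5.60 and correlated at 0.995 to 0.996 within and 0.989 to 0.990 between groups, across genes. Centring each array on its median made rises smaller and falls larger, and the same 4 genes were called. The difference became 0.27 for Ung (limma, adjusted p = 0.0495) and -0.43 for Gadd45g (0.0502). None of the 9 measured genes fell below the lower quartile of an array (3.99 to 4.05) on any array. The labelled cell type was checked on 8 pluripotency markers, whose mean log2 signal was 10.64 to 10.67 on vitamin C arrays and 10.56 to 10.58 on untreated arrays. Nanog and Zfp42 were called higher, none was called lower and 6 were not called. Of those 6, Klf4, Sox2 and Tfcp2l1 lay higher. Pou5f1 (-0.12, limma adjusted p = 0.235), Dppa5a (-0.14, 0.190) and Esrrb (-0.05, 0.640) lay lower. For comparison with these marker counts, 5.75% of all genes rose and 7.40% fell. Of 12 fibroblast markers 8 rose and 1 fell, and their mean was 5.85 to 5.91 on vitamin C arrays and 5.20 to 5.31 on untreated arrays. Of 8 primitive endoderm markers 3 rose and none fell (mean 5.77 to 5.80 against 5.52 to 5.58), and of 8 trophectoderm markers 1 rose and 2 fell (6.23 to 6.30 against 6.28 to 6.39). Log2 array signals have no zero, and 2 fibroblast markers had means below every array's lower quartile. The part of other cell types in the differences of the 9 genes was not tested, and in bulk RNA fewer cells expressing a gene and less RNA per cell cannot be told apart.

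**Figure D4:**
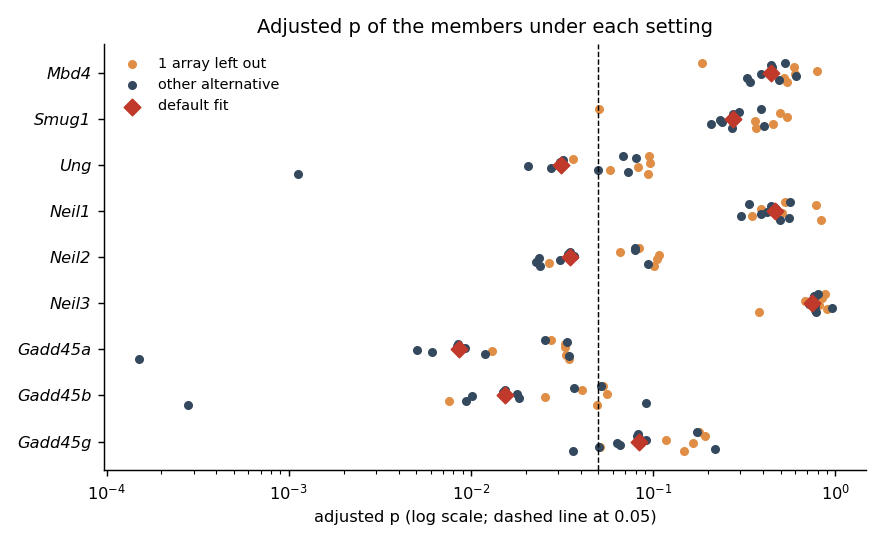
Adjusted p of each measured gene (log axis) in the default fit (diamond), with 1 array left out (orange) and under the other alternatives (dark points), with the threshold of 0.05 dashed. All points of Gadd45a lie left of the threshold, those of Gadd45b, Gadd45g, Ung and Neil2 lie on both sides, and those of Mbd4, Smug1, Neil1 and Neil3 lie right of it.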

How the data were processed

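RNA of the 6 samples was amplified with a whole-transcriptome kit and labelled with biotin, per the labels' protocols. The authors deposited 1 table of log2 values, a scale inferred from their range, and RMA is named in the submitters' processing notes. RMA equalises the arrays' distributions, which would hide a shift common to every gene. Its software and version were not found in the labels.

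Of 35557 rows, 21789 had 1 gene symbol in GEO's platform annotation, 1621 several and 12147 none. The 19938 genes, each by its highest-mean probe set, were fitted together by limma (version 3.58.1, R 4.3.3) without covariates, and Benjamini-Hochberg adjustment ran over all of them. Calls needed an adjusted p below 0.05. The fit was tested on simulated data with 200 changed genes. The number of arrays limits the precision. Alternatives varied how variances were moderated, how arrays were scaled or weighted, which probe sets and genes entered, the threshold, a replicate block, and each array in turn left out.

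The members, lists and tests were chosen with earlier results of these data known. All members were named. From each list up to 4 called genes of smallest p were named, and Tet1, Tet2, Tet3 and Apex1. Phlda3, Brca1, Mdm2, Btg2, Zmat3, Sesn1 and the uncalled pluripotency markers were added after their values were seen. Fits of all rows, sensitivity of list genes and the motif CACGTG were added after seeing the data. Figures were drawn with matplotlib 3.10.9.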

Additional observations from a re-analysis of the deposited data

How the results depend on the processing

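The 9 measured genes gave 144 values under 16 alternatives, of which 122 kept direction and side of the threshold, 20 lost the call in the same direction and 1 gained it. The last, Neil3 without untreated replicate 2, changed sign to -0.022, and its difference ran up to 0.12 without untreated replicate 1. In the default fit 4 of the 9 genes and 13.2% of all genes were called. The count of 4 was 1 with no moderation (7.75% of all genes) and 1 with every row of the table tested (5.95% of rows). It was 1 at an adjusted p under 0.01 (4.52%) and 2 with the replicate block (8.64%). With 1 array left out it ran from 1 to 3 (7.44% to 8.63%). The count of 18 called list genes was 32 with a trended and robust spread, where 20.8% of all genes passed. It was 11 with the replicate block (8.64%), 10 with every row tested (5.95% of rows) and 6 at an adjusted p under 0.01 (4.52%). With 1 array left out it was 9 to 12 (7.44% to 8.63%). With arrays centred on their medians it was 15, with 5 rises and 10 falls, where 13.5% of all genes passed. A stricter threshold lowers such counts by construction, and the causes of the other changes were not tested. The deviations of same-numbered arrays correlated at 0.05, 0.01 and -0.02, and 3 of the 6 arrays correlated best with their own number, so the numbers were not taken to pair the arrays. The motif counts in the windows changed by at most 2 of 9 when the 50 bases after the start were left out. Arrays tend to understate changes of weak signals, which limits what can be said of the dimmer genes.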
